A study of Rattus norvegicus with 44 samples.

Results

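The nuclear genes of the mitochondrial respiratory chain and ATP synthase were followed across choroid plexus and blood of the rat. Members were all probes whose platform gene symbol begins with Nduf, Uqcr, Atp5 or Cox4 to Cox8, or is one of Sdha to Sdhd, with the brightest probe standing for a gene. This gave 78 probes for 69 genes, of 10412 genes on the array with a symbol. They comprise 28 genes of complex I, 4 of complex II, 6 of complex III, 13 of complex IV and 13 of complex V, plus 2 complex I assembly factors (Ndufaf1 and Ndufaf4). A further 3 genes stand outside the complexes: the pseudogene Cox6c-ps1, and Emc8 and Dmac2l, which match only by the older names on the platform. Atp5if1 and Atp5mk carry such a symbol only today, and were not counted.

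RNA came from male Sprague-Dawley rats (NCTR strain) aged 3 months, hybridised to 44 single-colour Agilent arrays in 11 groups of 4. Choroid plexus (CP), the epithelial tissue in the brain's ventricles that secretes cerebrospinal fluid, was taken 3 h or 1 day after environmentally-induced hyperthermia (EIH), 3 h or 1 day after amphetamine (AMPH), and 3 h after saline. Each CP array held a pool of 3 rats. Trunk blood, 1 rat an array, was taken 3 h and 1 day after EIH, AMPH and saline. Temperatures and doses are not given in the labels. CP after 1 day therefore had no saline group of its own time and was set against CP saline at 3 h.

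Some labels limit these groups. By the rat numbers in the titles, 17 blood rats also gave tissue to a CP pool, and 5 numbers recur over 7 pools, so the arrays are not all independent and the p-values measure the spread between them. Moreover, 4 numbers appear under more than 1 time or treatment, on 9 arrays in all, which a single rat cannot have had. Some titles or group labels may therefore be wrong, and which of them was not settled here. The 4 CP pools of EIH at 1 day are titled as controls, although their source and treatment labels say EIH. A tag on the blood samples mentions striatum, while the protocol says trunk blood. The measured markers fitted the tissues: 9 of 10 tested CP epithelium genes were higher in CP saline than in blood saline, and 6 of 6 erythroid and 3 of 3 platelet genes were lower. Muscle markers were uneven among the CP saline pools, with a summed intensity of Ckm, Mb and Actc1 of 503, 657, 20300 and 2560 in replicates 1 to 4. CP AMPH 1 day replicate 2 stood apart from the other pools of its group, as described with the 1 day results.

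The respiratory chain sits in the inner mitochondrial membrane. Complex I oxidises NADH and complex II, which is also an enzyme of the citric acid cycle, oxidises succinate. Both pass electrons to ubiquinone. Complex III carries them on to cytochrome c, complex IV (cytochrome c oxidase) hands them to oxygen, and complex V uses the resulting proton gradient to make ATP. Several complex IV subunits exist in isoforms made from separate genes, with one form in most tissues and another in heart and skeletal muscle, lung or testis. CP epithelium is rich in mitochondria and pumps ions to make cerebrospinal fluid, whereas mature red cells have lost their mitochondria.

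Promoters of the complex IV genes on which the tissue comparison turns are shown first, because members of the same complex differed most there. RefSeq promoters (build GRCr8) matched 61 of the 69 members. Motifs known from nuclear genes of the respiratory chain were searched on both strands of the 300 bases that run from 250 before to 50 after each start. They were the ETS core CCGGAAG (bound by GABP, also called NRF2), the NRF1 motif TGCGCA and the YY1 core AAGATGG. The ETS and YY1 cores can overlap in their AAG. Each sequence below is the 250 bases before the start, 5′ to 3′ on the gene's strand, with motif letters in capitals.
Cox8b, chr1:205408274-205408523, minus strand, GRCr8: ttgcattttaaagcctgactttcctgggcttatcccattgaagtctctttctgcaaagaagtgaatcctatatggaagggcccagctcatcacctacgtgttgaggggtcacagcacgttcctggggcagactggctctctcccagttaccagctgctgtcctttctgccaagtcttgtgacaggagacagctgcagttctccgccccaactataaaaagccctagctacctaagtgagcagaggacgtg
Cox8a, chr1:213833624-213833873, minus strand, GRCr8: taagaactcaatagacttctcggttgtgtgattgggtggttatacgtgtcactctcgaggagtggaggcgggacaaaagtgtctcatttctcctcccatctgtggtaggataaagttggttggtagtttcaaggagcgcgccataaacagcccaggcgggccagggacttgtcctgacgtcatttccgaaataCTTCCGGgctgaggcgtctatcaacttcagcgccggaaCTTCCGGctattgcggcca
Cox6b2, chr1:78122621-78122870, plus strand, GRCr8: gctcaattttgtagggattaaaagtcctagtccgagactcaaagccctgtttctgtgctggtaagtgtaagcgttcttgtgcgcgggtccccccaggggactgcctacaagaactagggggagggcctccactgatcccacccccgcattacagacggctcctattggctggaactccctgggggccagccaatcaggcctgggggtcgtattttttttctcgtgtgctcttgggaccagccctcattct
Cox6a2, chr1:192219717-192219966, minus strand, GRCr8: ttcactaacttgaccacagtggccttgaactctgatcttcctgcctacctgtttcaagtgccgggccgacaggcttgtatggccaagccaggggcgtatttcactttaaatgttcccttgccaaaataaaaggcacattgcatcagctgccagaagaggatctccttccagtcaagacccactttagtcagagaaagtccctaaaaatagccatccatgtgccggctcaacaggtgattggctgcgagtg
Cox4i1, chr19:65630133-65630382, plus strand, GRCr8: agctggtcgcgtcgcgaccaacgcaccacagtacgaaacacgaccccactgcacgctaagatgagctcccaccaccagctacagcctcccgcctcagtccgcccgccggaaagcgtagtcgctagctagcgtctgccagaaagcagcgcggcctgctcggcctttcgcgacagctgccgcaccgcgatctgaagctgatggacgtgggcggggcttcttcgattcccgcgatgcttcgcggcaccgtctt
Cox5b, chr9:46417587-46417836, plus strand, GRCr8: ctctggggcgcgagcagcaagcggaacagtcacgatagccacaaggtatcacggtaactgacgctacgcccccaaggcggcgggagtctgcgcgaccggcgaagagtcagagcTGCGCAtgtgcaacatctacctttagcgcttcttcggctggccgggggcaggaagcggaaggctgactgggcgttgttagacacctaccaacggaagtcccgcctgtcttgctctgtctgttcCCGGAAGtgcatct

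The promoters of Cox8b, Cox6b2 and Cox6a2 held none of these motifs in the whole window. The same was true of other members, among them Cox5a and Cox7b of complex IV, Ndufv3 and Ndufs3 of complex I, and Atp5f1b and Atp5mc1 of complex V. Cox4i2 and Cox6a1 were among the members without a matched promoter. Cox8a, the widely expressed partner of Cox8b, held an ETS core at -57 and another at -19 from the start, and a YY1 core that runs across the start and is not marked in the printed bases. Cox5b held the NRF1 motif at -137 and an ETS core at -14, and the 2 ETS cores of Cox4i1 lie in the 50 bases after the start, which are not printed. Among the 61 members matched, 20 (32.8%) held the ETS core, 18 (29.5%) the NRF1 motif, 14 (23.0%) the YY1 core and 40 (65.6%) any of them. Among 8525 genes on the array with a promoter these shares were 13.3%, 11.6%, 7.40% and 27.7%, and among all 27457 promoters they were 9.22%, 7.69%, 7.30% and 21.5%. These matches describe letters in a window and are not evidence of binding.

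In rats given saline, most respiratory chain genes were more abundant in CP than in blood at 3 h. Of the 69 members, 55 were higher in CP, 3 were lower and 11 did not pass the test (limma, Benjamini-Hochberg adjusted p under 0.05 over 9925 genes). Over all genes tested, 31.9% were higher and 24.3% were lower, 56.2% in either direction. The median difference of the members was 1.83 on the log2 scale, against 0.15 over all genes. The count differed by complex: 26 of 28 genes of complex I, 4 of 4 of complex II, 4 of 6 of complex III and 12 of 13 of complex V were higher and none of these was lower. In complex IV, 5 of 13 were higher and 3 were lower. In bulk samples like these, fewer cells of a type and less RNA per cell cannot be told apart.

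**Figure D1:**
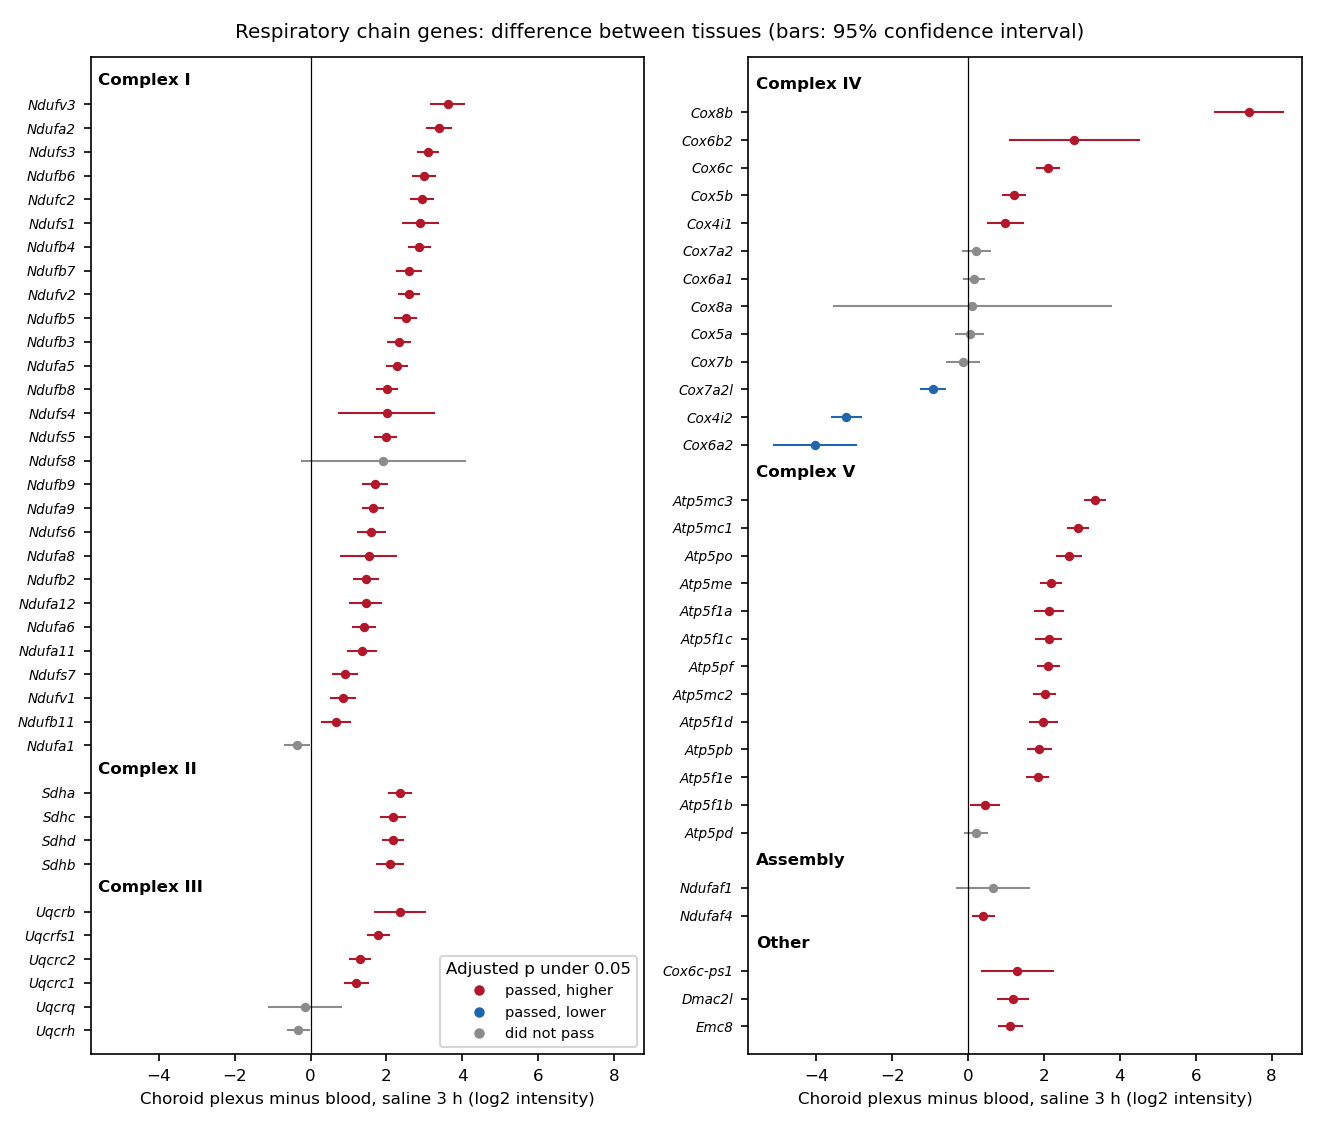
Difference between CP and blood in rats given saline, at 3 h, for each of the 69 respiratory chain genes (log2 intensity, n = 4 pools and 4 rats), by complex. Points are differences of means, bars are 95% confidence intervals, and colour marks the test. Complexes I, II and V lie almost wholly to the right of 0, while complex IV spreads to both sides, with Cox8b at 7.40 and Cox6a2 at -4.03.

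Within complex I, the entry point of NADH electrons, Ndufv3, an accessory subunit of the NADH-binding module, had the largest difference. Its log2 intensity was 12.32, 12.49, 11.96 and 11.95 in CP, against 8.51, 8.68, 8.82 and 8.28 in blood, which is 12.2-fold (95% interval 9.02 to 16.5, adjusted p 1.75e-06). Every CP pool lay more than 3 log2 above every blood sample. Ndufs3, a core subunit of the ubiquinone-binding module, measured 13.41, 13.44, 13.37 and 13.38 in CP, against 10.40, 10.29, 10.19 and 10.34 in blood, a difference of 3.10 ± 0.11 (SE). The accessory subunit Ndufa2 differed by 3.39 ± 0.13. The iron-sulfur subunits Ndufs1 and Ndufv2 differed by 2.90 and 2.59.

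The difference was smaller for some core subunits of the same complex. Ndufv1, which carries the flavin that accepts electrons from NADH, differed by 0.87 ± 0.14, and the iron-sulfur subunit Ndufs7 by 0.91. The accessory subunit Ndufb11 differed by 0.67. Ndufs8, a further iron-sulfur subunit, did not pass (1.92 ± 0.93, adjusted p 0.115). Its CP values were 10.68, 10.84, 6.55 and 10.63, against 7.81, 7.78, 7.60 and 7.82 in blood, so replicate 3 alone lay below blood. Without that pool the difference was 2.96 (adjusted p 1.01e-05), and a second Ndufs8 probe gave 2.99. The remaining complex I gene, Ndufa1, was at -0.35 (adjusted p 0.054), and without blood saline replicate 1 it passed as lower in CP (-0.41, adjusted p 0.043). Its mean log2 intensity was 15.09 in CP and 15.44 in blood. The second probe of Ndufb3, a dim one, did not pass (0.97, adjusted p 0.202), where the probe that stands for the gene gave 2.34.

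All 4 genes of complex II differed by a similar amount. Sdha, the flavoprotein that oxidises succinate, measured 14.70, 14.83, 14.87 and 14.68 in CP, against 12.53, 12.46, 12.40 and 12.24 in blood, a difference of 2.36 ± 0.12. The iron-sulfur subunit Sdhb differed by 2.10, and the membrane anchors Sdhc and Sdhd by 2.17 each. Their groups did not overlap, and the share of all genes without such overlap was not counted.

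In complex III, 4 of 6 genes passed as higher in CP. Uqcrb, a small subunit next to the ubiquinone site, differed by 2.35 ± 0.29, and Uqcrfs1, the Rieske iron-sulfur protein, by 1.78 ± 0.12. The core proteins Uqcrc2 and Uqcrc1 differed by 1.30 and 1.21. The other 2 genes did not pass, and their probes may limit what they can show. Uqcrq was at -0.14, with mean log2 intensities of 4.411 in CP and 4.555 in blood, so both levels may be background. The differences given below for Uqcrq after EIH and AMPH come from the same dim probe, which reached at most 7.92 on any array. The hinge protein Uqcrh was at -0.32 (adjusted p 0.057). Its means were 15.19 in CP and 15.51 in blood, not far below the top of the range (log2 15.999). Uqcrh passed as lower in CP without blood saline replicate 2 (-0.38, adjusted p 0.042).

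In complex V, the 3 genes for the c subunit of the membrane rotor were higher. Atp5mc3 measured 14.36, 14.53, 14.36 and 14.36 in CP, against a mean of 11.06 and a highest value of 11.12 in blood, a 10.2-fold difference (adjusted p 2.82e-07). Atp5mc1 differed by 2.90 and Atp5mc2 by 2.01. These genes encode the same mature protein from different precursors, and whether the probes are specific was not checked here. A second Atp5mc2 probe gave 1.01 and a second Atp5mc3 probe 3.41, both past the threshold.

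The catalytic head of complex V was uneven. The alpha subunit Atp5f1a and the gamma subunit Atp5f1c differed by 2.14 and 2.12, whereas the beta subunit Atp5f1b differed by 0.44 ± 0.16 (adjusted p 0.045), a call that was lost when any of 6 of the 8 arrays was left out. Atp5po, the stalk protein that confers oligomycin sensitivity, differed by 2.67. Atp5pd, another stalk subunit, did not pass (0.21, adjusted p 0.200).

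Of the complex I assembly factors, Ndufaf4 was higher in CP (0.40, adjusted p 0.0217), a call lost without CP saline replicate 1, 2 or 3. Its other 2 probes, both dimmer, gave 1.34 (adjusted p 0.0576) and 0.74 (adjusted p 0.431). Ndufaf1 did not pass (0.65, adjusted p 0.213). The genes outside the complexes were higher, Emc8 by 1.11, Dmac2l by 1.19 and Cox6c-ps1 by 1.30. The call of Cox6c-ps1 was lost without CP saline replicate 2, 3 or 4.

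Complex IV held both extremes of the 69 genes. Cox8b, the form of subunit 8 known from heart and skeletal muscle, measured 12.86, 12.64, 12.85 and 13.16 in CP, against 4.97, 6.61, 5.48 and 4.82 in blood. The difference was 7.40 ± 0.38 (adjusted p 1.72e-06). All blood values lie below the median intensity of their arrays. The epithelial gene Enpp2 (5.12 to 6.54) lies there too in the same blood samples. So does Folr1 (4.46 to 7.35) except in replicate 2, at 7.35. No background flags were used, so the blood level may be background and the difference a lower bound. The same holds for Uqcrb, Ndufs4, Cox6b2 and Cox6c-ps1, whose blood saline means lie between 4.68 and 6.66. Cox8b was as high in CP replicates 1 and 2, where Ckm stood at 5.34 and 5.00, as in replicates 3 and 4, where Ckm stood at 13.15 and 9.51. The muscle marker Acta1 stood at 5.22 and 5.66 in replicates 1 and 2, and at 12.34 and 8.62 in replicates 3 and 4. Tnnt2, also a muscle marker, did not follow that order, at 7.89, 6.53, 7.14 and 3.57 in replicates 1 to 4. The part of muscle RNA in the Cox8b values was not tested.

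Cox6a2, the muscle form of subunit 6a, went the other way. It measured 7.32, 7.44, 9.48 and 8.21 in CP, against 11.80, 12.16, 12.28 and 12.32 in blood, a difference of -4.03 ± 0.46 (adjusted p 0.000137). All CP pools lay below all blood samples, and the higher CP values were those of replicates 3 and 4, the pools with more muscle marker signal. The part of muscle RNA in those values was not tested.

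Cox4i2, the form of subunit 4 known from lung and from cells at low oxygen, was also lower in CP. It measured 8.46, 8.74, 8.86 and 8.76 in CP, against 11.63, 12.09, 11.82 and 12.11 in blood, a difference of -3.21 ± 0.16 (adjusted p 1.55e-06). Its widely expressed partner Cox4i1 differed in the opposite direction, with 12.96, 12.93, 12.66 and 12.80 in CP, against 11.39, 11.79, 12.04 and 12.20 in blood (0.98 ± 0.20, adjusted p 0.003). Both genes separated the tissues without overlap.

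Among the other complex IV genes, Cox6b2, the testis form of subunit 6b, was 2.80 ± 0.71 higher, with CP between 7.31 and 7.90 and blood at 4.97, 3.12 and 6.43, with 1 cell blank. Cox6c differed by 2.10 and Cox5b by 1.21. Cox7a2l, which takes part in joining complexes III and IV into supercomplexes, was lower in CP (-0.93 ± 0.13, with CP at 11.32 to 11.36 and blood at 12.04 to 12.47). Cox5a, Cox7a2 and Cox7b did not pass, at 0.04, 0.22 and -0.13.

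Cox6a1 and Cox8a, the widely expressed partners of the muscle forms, did not pass. Cox6a1 averaged 15.99 in CP and 15.83 in blood, so the top of the range limits what it can show. Cox8a measured 15.98, 15.97, 8.86 and 15.99 in CP, against 13.91 to 14.19 in blood, and replicate 3 alone was low. Without that pool Cox8a passed as higher in CP (1.89, adjusted p 4.89e-05), with 3 pools near the top of the range.

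**Figure D2:**
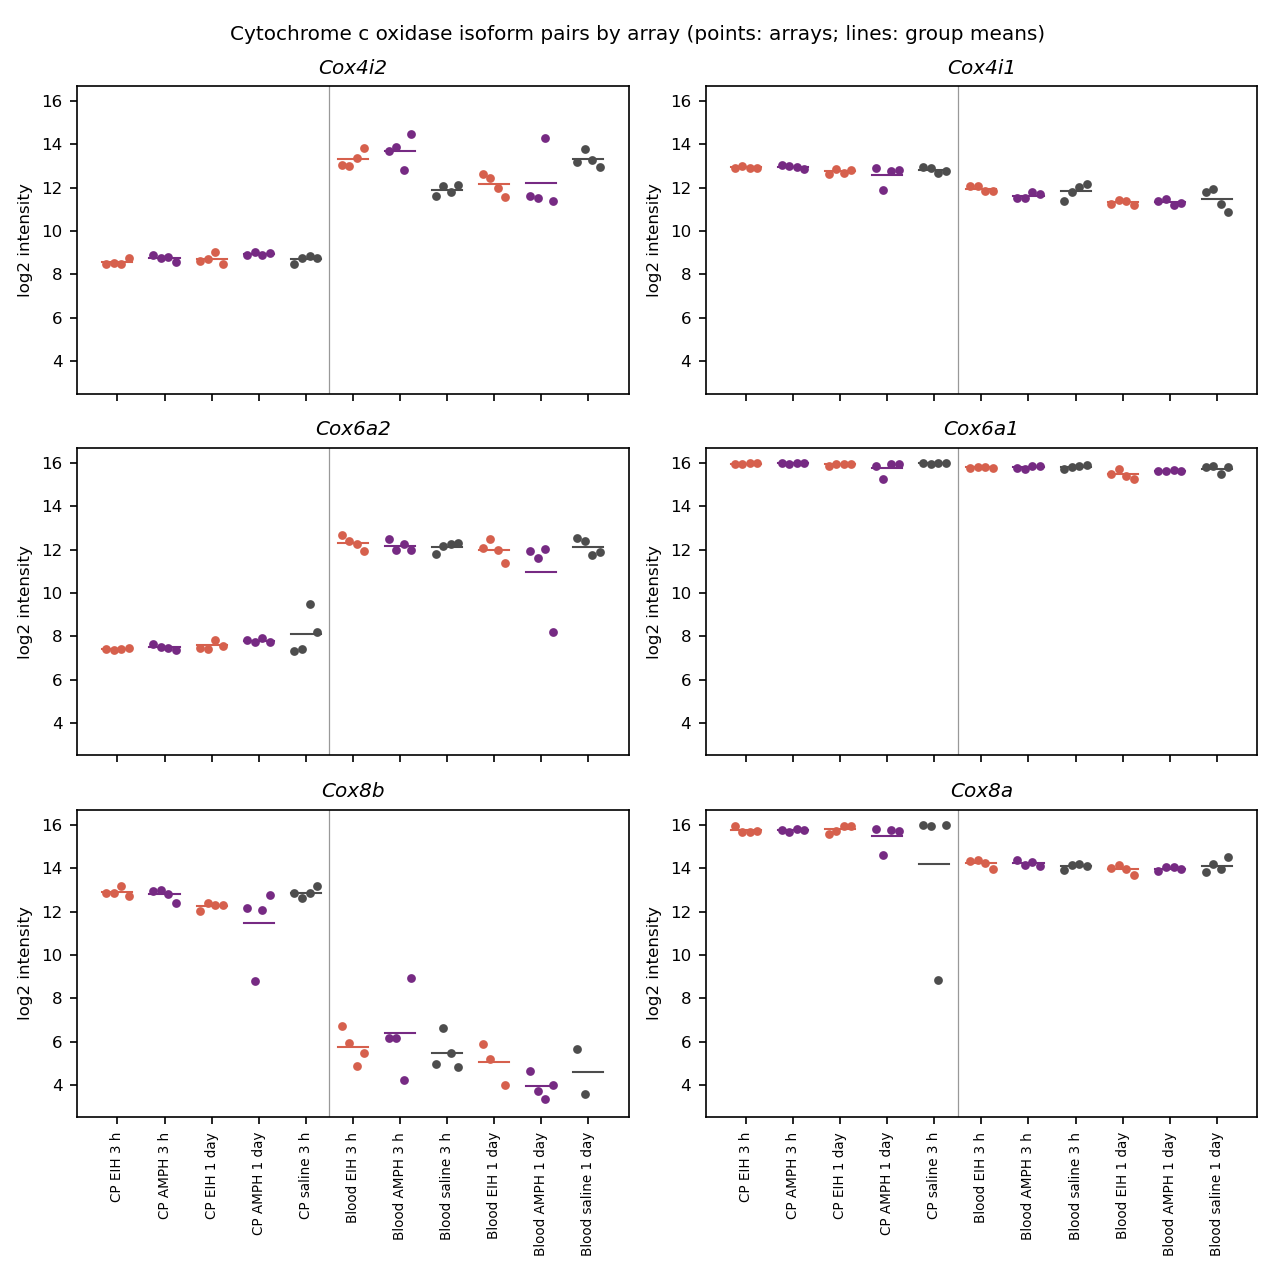
Log2 intensity of 3 pairs of complex IV isoforms by array in all 11 groups, with the restricted form at left and the widely expressed form at right (points are arrays, lines are group means). Cox8b is high in CP and low in blood in every condition, Cox4i2 and Cox6a2 are the reverse, and the lone low points include Cox8a at 8.86 in CP saline replicate 3 and Cox8b at 8.81 in CP AMPH 1 day replicate 2.

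The same contrast between tissues was made within each treated group, on separate arrays. Between 53 and 59 members were higher in CP and 3 to 5 were lower, with medians of 2.06 after EIH at 3 h, 1.92 after AMPH at 3 h, 1.75 after EIH at 1 day and 1.54 after AMPH at 1 day. Over all genes, 32.5%, 32.2%, 31.9% and 24.2% were higher and 26.7%, 25%, 26% and 20.7% lower in these same 4 comparisons. Of the 55 members higher in CP saline, 53, 52, 54 and 50 were higher there too. Cox8b differed by 7.16, 6.42, 7.22 and 7.54, Cox6a2 by -4.90, -4.70, -4.41 and -3.15, and Cox4i2 by -4.75, -4.96, -3.46 and -3.25. Cox8a passed in all 4, at 1.54, 1.53, 1.85 and 1.49. Cox7a2l passed in 3 and not after AMPH at 3 h (-0.27, adjusted p 0.245).

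In CP, no respiratory chain gene passed the test 3 h after EIH or AMPH. The background was low too: 0.341% of genes passed after EIH and 0.156% after AMPH (limma). At an unadjusted p under 0.05, 2 members were higher and 3 lower after EIH, and 3 were higher and 2 lower after AMPH. Member medians were -0.01 and -0.02. AMPH set against EIH at 3 h gave 0 members at either threshold, with 0.00973% of genes called.

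The nearest to a change were Uqcrb and the assembly factor Ndufaf4. Uqcrb measured 9.53, 9.67, 9.47 and 9.58 after EIH and 9.54, 9.57, 9.60 and 9.43 after AMPH, against 8.99, 9.33, 9.001 and 8.72 after saline. Both treated groups lay above all saline pools, by 0.55 ± 0.21 (adjusted p 0.261) and 0.52 ± 0.21 (adjusted p 0.247). Ndufaf4 differed by 0.43 (adjusted p 0.129) and 0.39 (adjusted p 0.138). The fit shares its spread with the 1 day pools. Without CP AMPH 1 day replicate 2, both genes passed as higher after EIH (adjusted p 0.0476 for Uqcrb and 0.0479 for Ndufaf4) and after AMPH (0.0438 and 0.0496), beside 1.33% and 2.2% of all genes called higher.

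The largest positive differences belonged to Cox8a (1.57 after EIH and 1.55 after AMPH) and Ndufs8 (1.05 and 0.94), whose saline means hold the low spots of replicate 3. Among the negative ones were Cox6a2 (-0.70 and -0.62), Atp5f1c (-0.52 and -0.44), Cox6c-ps1 after EIH (-0.59) and Cox5a after AMPH (-0.37). The higher saline values of Cox6a2 were those of the pools with muscle markers. With arrays weighted by their quality, 2 members passed as higher and 8 as lower after EIH, including Ndufs3 at -0.40 (adjusted p 0.0136) and Atp5f1c at -0.49 (adjusted p 0.0191), beside 10.8% of all genes. Under the same weights 3 passed as higher and 4 as lower after AMPH, beside 13.2% of all genes.

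After 1 day, no member of CP passed against saline at 3 h, with 0% of genes called after EIH and 0.0294% after AMPH. Treatment cannot be told apart here from time or from the set in which arrays were normalized, since the median of all genes was itself at 0.17 after EIH and 0.11 after AMPH. After EIH, 3 members were higher and 1 lower at an unadjusted p under 0.05. The member median was -0.07, and 48 of 64 subunits had a negative difference. Cox8b was at -0.62, Cox6a2 at -0.53 and Ndufb7 at -0.40, and Cox6b2 at 0.53 (adjusted p 0.294). Cox8a and Ndufs8 were again at the top, at 1.60 and 0.74.

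After AMPH at 1 day, 24 members were lower and 1 higher at an unadjusted p under 0.05, and 56 of 64 subunits had a negative difference with a median of -0.34. The size of that median rested largely on 1 pool, although most subunits stayed negative when it was left out. Cox8b measured 12.18, 8.81, 12.08 and 12.78, against 12.86, 12.64, 12.85 and 13.16 after saline. Atp5mc3 measured 14.08, 12.39, 14.20 and 14.17, against 14.36, 14.53, 14.36 and 14.36 after saline. In both genes replicate 2 was far below the other 3 pools. Without it, the subunit median was -0.08, with 47 of 64 negative, and the comparison of AMPH with EIH at 1 day (0 members called, 0% of genes) had a subunit median of 0.01 in place of -0.25. By name the largest differences with all pools were Cox8b (-1.41 ± 0.55, adjusted p 0.228), Ndufs3 (-0.73) and Atp5mc3 (-0.70), against Uqcrq (1.42), Cox8a (1.28) and Ndufs8 (0.44).

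Markers of other cells moved with that pool. In replicate 2 the summed intensity of the CP epithelium markers Aqp1, Folr1 and Enpp2 was 36300, against 92000 to 93400 in the other 3 pools. Enpp2, near the top of the range in those 3, carries most of that sum, and Aqp1 is as bright in blood. In log2 intensity Folr1 itself was lower by more than the sum, at 10.66 against 14.09 to 14.23. So were the further epithelial genes Otx2 at 11.54 against 14.80 to 15.21, Clic6 at 9.21 against 12.81 to 12.94 and Slc4a5 at 7.43 against 10.38 to 11.27. Ttr, near the top of the range in every pool of the group, was level, at 15.96 against 15.97 to 15.98. The ependymal marker Foxj1 was at 1750, against 12600 to 17600. Stromal markers (Col1a1, Col1a2, Dcn) summed to 101000, against 7160 to 11700, erythroid markers to 24200, against 3000 to 3760, and platelet markers to 12100, against 544 to 971. CP EIH 1 day replicate 1, the lowest of its group over all subunits at -0.28, also had more stromal signal, with 68700 against 8860 to 10600. The part of these cells in the subunit levels was not tested.

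**Figure D3:**
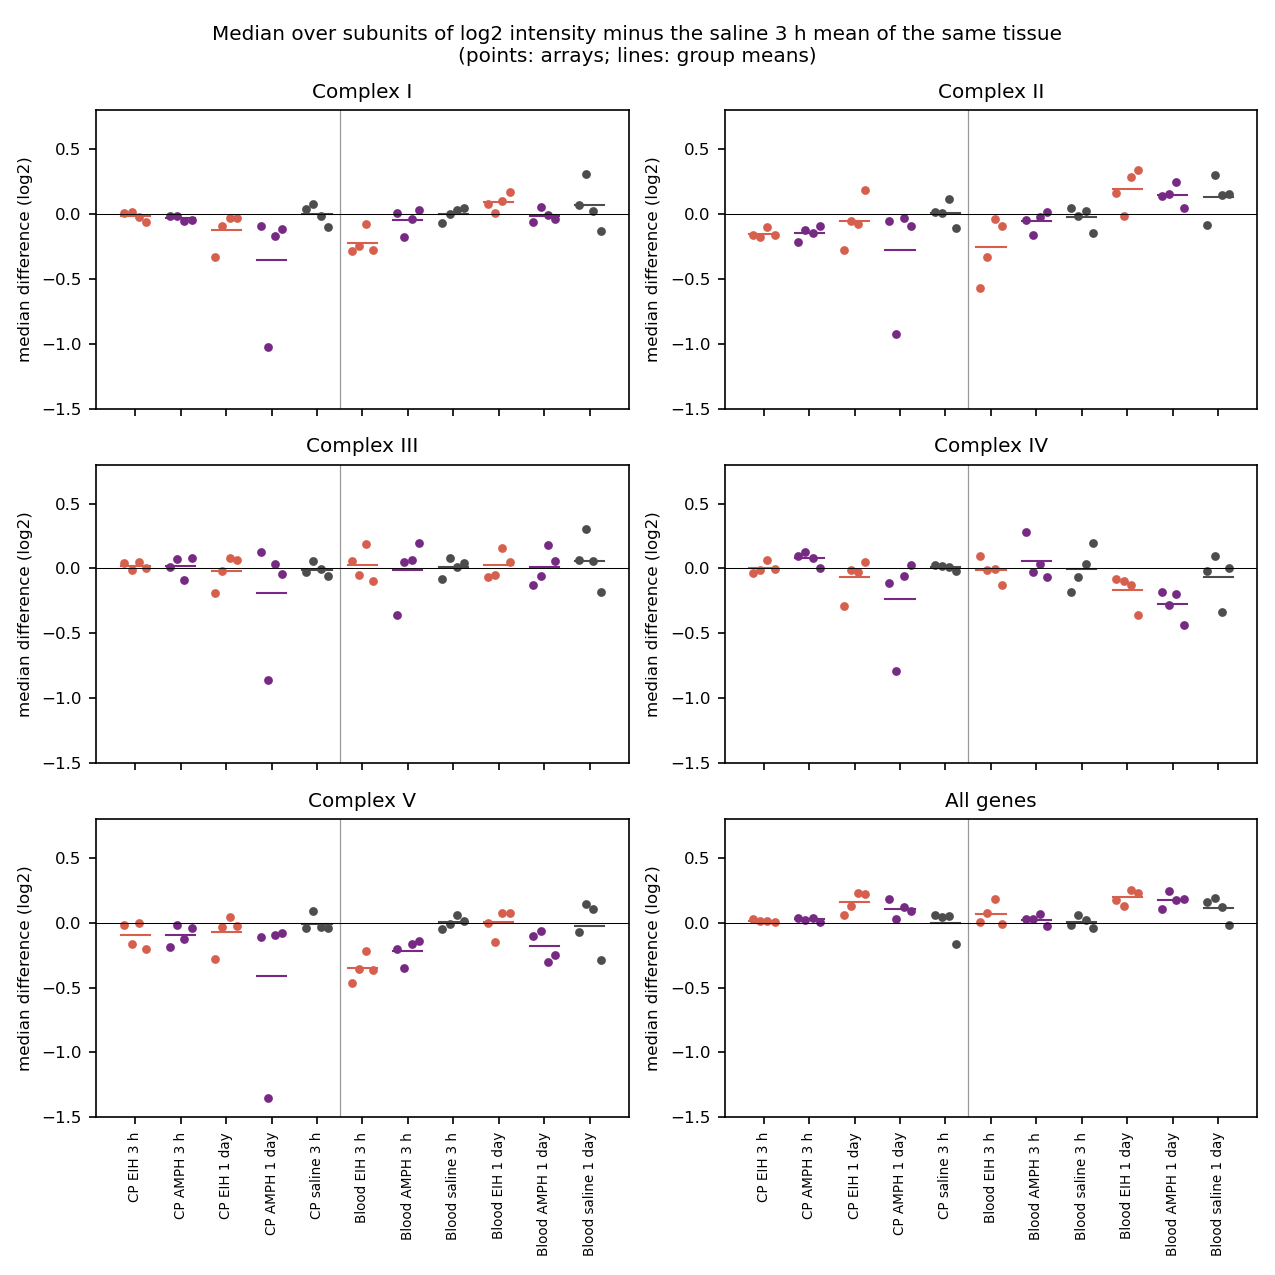
Median over the subunits of a complex of log2 intensity minus the saline 3 h mean of the same tissue, by array in all 11 groups, with all genes in the last panel (points are arrays, lines are group means). CP AMPH 1 day replicate 2 is the lone low point, from -0.79 in complex IV to -1.35 in complex V, and in blood at 3 h complex V is below 0 in all 4 rats after EIH and all 4 after AMPH.

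Read as medians per array, the complexes of CP stayed close to saline at 3 h. Complex II lay at -0.18 to -0.10 after EIH and -0.21 to -0.09 after AMPH, against -0.11 to 0.11 after saline, so the ranges overlapped. Complex IV lay at 0.00 to 0.13 after AMPH, against -0.02 to 0.03 after saline. These scores have no test.

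In blood, 6 respiratory chain genes fell 3 h after EIH and none rose, read by the brightest probe of each gene. The background was 12.6% of genes called, 5.63% higher and 7% lower (limma, 9893 genes), so the share of members that fell (6 of 69, 8.7%) was near that of all genes. Of the 6, 4 belonged to the 13 genes of complex V, 1 to complex I and 1 to complex III. The member median was -0.14, against 0.08 over all genes. All 13 genes of complex V had a negative difference, with a median of -0.36, whereas the medians were -0.21 in complex I, -0.26 in complex II, 0.12 in complex III and 0.11 in complex IV.

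The 4 of 13 complex V genes that passed as lower encode parts of the catalytic head, the stalk and the rotor of ATP synthase. The beta subunit of the head, Atp5f1b, did not pass. Atp5f1a, the alpha subunit, measured 10.51, 10.40, 10.54 and 10.57 after EIH, against 11.23, 11.40, 11.16 and 10.86 after saline, a difference of -0.66 ± 0.17 (adjusted p 0.0129). Atp5f1c, the gamma subunit, fell by 0.65 ± 0.17 (adjusted p 0.0150). All treated rats lay below all saline rats in both genes. Atp5mc1, a c subunit gene, measured 11.64, 11.74, 12.04 and 11.80 after EIH, against 12.44, 12.35, 12.49 and 12.40 after saline (-0.61 ± 0.15, adjusted p 0.0115). Atp5pb, the stalk subunit b, fell by 0.48 ± 0.13 (adjusted p 0.0159). Its call was lost without saline replicate 3 (adjusted p 0.0517).

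The other 2 genes belong to earlier steps. Ndufs3 of complex I measured 9.46, 9.88, 9.58 and 9.45 after EIH, against 10.40, 10.29, 10.19 and 10.34 after saline (-0.71 ± 0.16, adjusted p 0.00634). Uqcrc2, a core protein of complex III, measured 10.40, 10.70, 10.97 and 10.56 after EIH, against 11.43, 11.45, 11.33 and 11.30 after saline (-0.72 ± 0.19, adjusted p 0.0179). Neither gene's groups overlapped, but Uqcrc2 was lost without EIH replicate 1 (adjusted p 0.0518). Fitted without blood saline 1 day replicate 4, an array outside the comparison, 10 members passed as lower, with 8.46% of all genes, adding Ndufa6, Ndufb8, Ndufs5 and Sdha. The largest differences that did not pass were Cox4i2 (1.40 ± 0.48, adjusted p 0.063), Uqcrq (0.96), Ndufa11 (0.43) and Atp5mc2 (-0.66). Without blood AMPH 1 day replicate 3, also outside the comparison, Cox4i2 passed as higher (adjusted p 0.00387). A second Atp5mc2 probe passed as lower, at -0.67 (adjusted p 0.0368). A second Ndufb3 probe passed as higher, by 2.54 (adjusted p 0.0015), where the brighter probe was at -0.32 (adjusted p 0.148). It measured 8.16, 6.65, 7.505 and 7.12 after EIH, against 4.72, 5.81, 5.48 and 3.25 after saline, so its groups did not overlap and its saline values are low. The probes of Ndufb3 disagree, and the gene's direction is not settled.

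**Figure D4:**
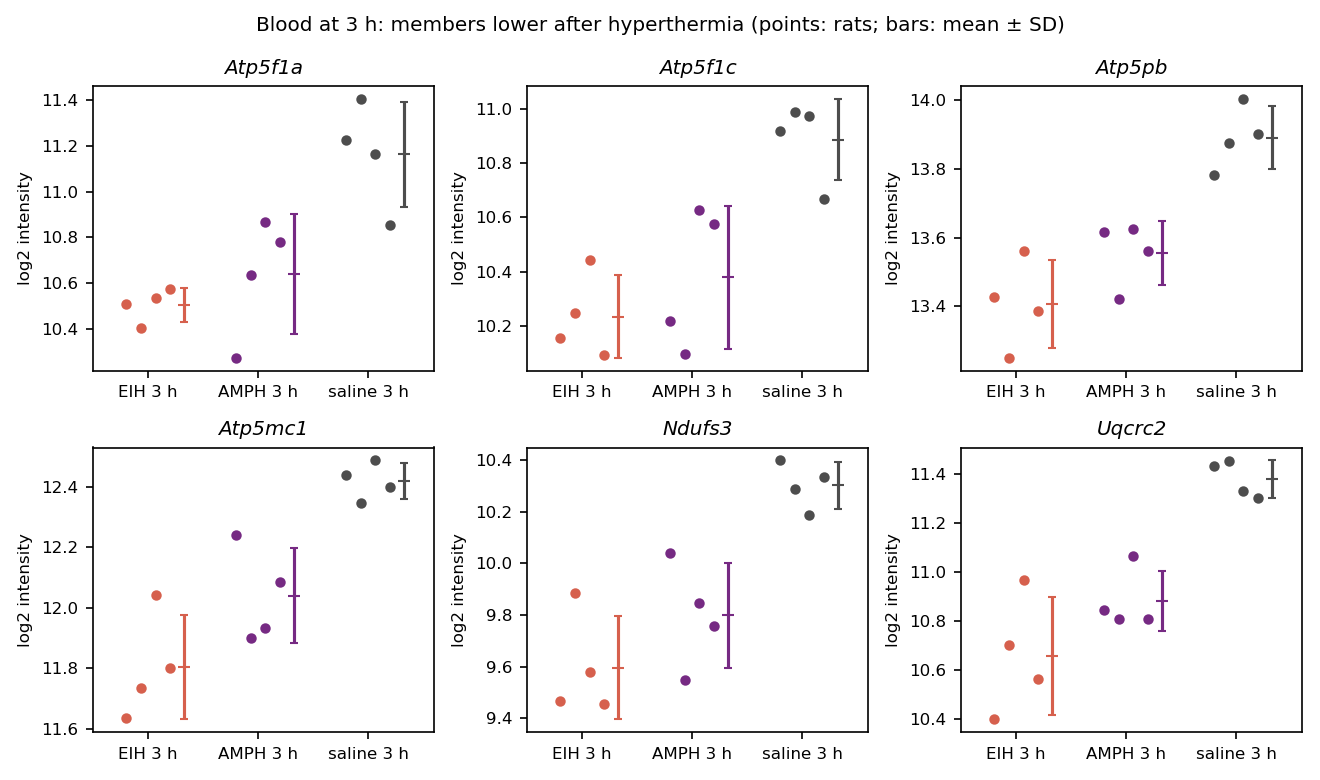
Log2 intensity in blood at 3 h of the 6 members that were lower after EIH than after saline (points are rats, n = 4 a group, bars are mean ± SD, and the axes do not start at 0). All EIH rats lie below all saline rats in each gene, and AMPH rats lie between or beside them. The 6 genes were chosen by that same comparison of EIH with saline, and the share of all genes so separated was not counted. None of the 6 passed after AMPH with arrays weighted equally, and all 6 passed as lower with array weights.

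After AMPH at 3 h, 1 member passed in blood, Cox4i2, which rose (8.68% of genes called, 5.08% higher and 3.6% lower). It measured 13.70, 13.88, 12.82 and 14.48 after AMPH, against 11.63, 12.09, 11.82 and 12.11 after saline, a difference of 1.81 ± 0.48 (adjusted p 0.0238). All AMPH rats lay above all saline rats. The call was lost when saline replicate 1 or 3 or AMPH replicate 2 or 4 was left out (adjusted p 0.0576 to 0.0888). Cox4i2 was at 13.07, 13.00, 13.36 and 13.83 after EIH at 3 h, also above all saline rats of that time. In saline rats of 1 day it was 13.18, 13.80, 13.29 and 12.98, so the saline groups of the 2 times did not overlap either.

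Of the 6 genes that fell after EIH, none passed after AMPH with all arrays weighted equally. Atp5f1a was at -0.52 (adjusted p 0.0591), Ndufs3 at -0.50 (0.0625), Atp5f1c at -0.51 (0.0718), Atp5pb at -0.33 (0.117), Uqcrc2 at -0.50 (0.125) and Atp5mc1 at -0.38 (0.144). With arrays weighted by their quality, these same 6 genes passed as lower after AMPH (limma adjusted p 0.0108 to 0.0302), beside 7.39% of all genes. The comparisons of EIH and of AMPH with saline share the same saline rats. AMPH set against EIH called 0 members (0.0397% of genes), with 4 higher and 0 lower at an unadjusted p under 0.05, so a difference between treatments was not shown. The count lower after AMPH became 1 without saline replicate 4, AMPH replicate 1, saline 1 day replicate 3 or 4 (Atp5f1a in both) or AMPH 1 day replicate 3 (Uqcrc2), and 2 without AMPH replicate 3. The largest differences that did not pass were Cox6c-ps1 (2.05, on 2 values a group), Uqcrq (1.29), Atp5mc2 (-1.41, with 1 spot at 9.02 against 13.15 to 13.37), Ndufa11 (-0.61) and Ndufa12 (-0.59).

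White cell markers shifted in the same blood samples. T cell markers (Cd3d and Cd3g) summed to 4120 to 11000 after EIH and 5460 to 11500 after AMPH, against 17500 to 21600 after saline, and 5 of 5 tested T cell genes were lower after each treatment. Neutrophil markers summed to 32900 to 75900 and 62400 to 103000, against 19800 to 33000 after saline, and monocyte markers to 49200 to 80500 and 48600 to 69600, against 31400 to 38300. After each treatment 2 of 5 neutrophil genes and 2 of 4 monocyte genes passed as higher. Of 2 B cell genes, 2 passed as lower after EIH and 1 after AMPH, and of 3 natural killer cell genes 0 passed after either. The B cell marker Cd79b was at 732 to 1010 and 903 to 1270, against 2070 to 3160. Erythroid markers summed to 237000 to 249000 and 229000 to 239000, against 235000 to 245000. Very bright genes carry that sum, and no value on any array exceeds 65491, so the sum may not show a change. Of the 6 erythroid genes tested, 0 passed after EIH, and 1 passed as lower after AMPH, where differences ran from -0.77 to 0.08. The part of these cells in the fall of the subunits and the rise of Cox4i2 was not tested.

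After 1 day no member passed in blood. After EIH, 0.082% of genes were called, the median of 68 members tested was 0.01, and 4 members were lower at an unadjusted p under 0.05. The largest differences were Cox4i2 (-1.15, adjusted p 0.434), Uqcrq (-1.13), Atp5mc2 (-0.93), Ndufs1 (1.31), Ndufs4 (0.89) and Cox8b (0.44). After AMPH, 2.08% of genes were called, the member median was -0.11, and 10 members were lower and 0 higher at an unadjusted p under 0.05. Uqcrq (-1.90, adjusted p 0.186), Cox6a2 (-1.19) and Ndufs7 (-1.16) had the largest negative differences, against Ndufs4 (1.33), Ndufs1 (1.17) and Sdhb (0.46). Cox6a2 and Ndufs7 rest on replicate 4, at 8.20 and 8.08 where the other 3 rats lay at 11.60 to 12.05 and 12.11 to 12.25. Without AMPH replicate 3, 1 member passed as lower after AMPH. AMPH set against EIH at 1 day called 0 members (0% of genes), with 0 higher and 3 lower at an unadjusted p under 0.05.

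The effect of EIH at 3 h was compared between the tissues in a fit over all 44 arrays, in which 6.13% of genes passed, 3.85% with the effect higher in CP and 2.28% lower. Of the members 2 passed. Ndufaf4 differed by 1.01 ± 0.27 (adjusted p 0.0199): it measured 10.04, 9.90, 9.98 and 10.00 in CP after EIH, against 9.66, 9.61, 9.57 and 9.35 after saline. In blood it measured 8.36, 9.16, 8.65 and 8.10 after EIH, against 9.18, 9.12, 9.12 and 9.17 after saline. The effect thus ran upward in CP and mostly downward in blood. Neither effect passed within its own tissue.

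Uqcrc2 differed by 0.76 ± 0.24 (adjusted p 0.0465), a call that was lost when any of 15 of the 16 arrays was left out. Ndufaf4 was lost without CP saline replicate 4 (adjusted p 0.0517) or blood EIH replicate 4 (0.0590). Cox4i2 did not pass (-1.54, adjusted p 0.0729). For AMPH at 3 h 3.15% of genes passed and 0 members did, with 3 higher and 3 lower at an unadjusted p under 0.05. Leaving out blood saline replicate 1 gave 1 higher, blood AMPH replicate 2 gave 2 higher, and blood AMPH replicate 3 gave 1 higher and 1 lower. Cox4i2 was at -1.74 (adjusted p 0.0567) and Ndufaf4 at 0.92 (adjusted p 0.0530).

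Genes that work beside the chain were read from lists. In the saline tissue comparison, Cyc1, the cytochrome of complex III, and Cycs, cytochrome c, were higher in CP, by 2.25 and 1.48. Of 10 citric acid cycle genes 7 were higher and 1 lower (median 1.78), with Idh3b at 2.21 and Cs, citrate synthase, at -0.41. Of 9 carriers, porins and uncouplers 6 were higher and 1 lower (median 1.61), with the adenine nucleotide carrier Slc25a4 at 4.71 and Ucp2 at -5.21. Of 7 coenzyme Q synthesis genes 6 were higher and 0 lower (median 1.45), and of 9 other assembly factors 6 and 0 (median 1.15).

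Regulators of mitochondrial biogenesis and glycolysis genes were more mixed. Of 12 regulators 4 were higher and 5 lower in CP (median -0.09), with the coactivator Ppargc1a at 2.83 and its relative Ppargc1b at -4.55. Of 16 glycolysis genes 11 were higher and 4 lower (median 1.00), with the lactate dehydrogenase subunits Ldhb at 6.88 and Ldha at -0.55. All of these stand beside 31.9% of genes higher and 24.3% lower.

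In blood 3 h after EIH, where 5.63% of all genes were higher and 7% lower, citric acid cycle genes had 3 of 10 lower (Suclg2 at -1.02, Suclg1 at -0.79 and Idh3g at -0.53) and 0 higher. Of the carriers 2 of 9 were lower, the phosphate carrier Slc25a3 at -0.58 and the adenine nucleotide carrier Slc25a5 at -0.60. Of the biogenesis regulators 3 of 12 were lower, including Tfam, which packages mitochondrial DNA, at -0.91 and the mitochondrial RNA polymerase Polrmt at -1.11. Cycs was higher, at 0.67, Pfkm of glycolysis was lower, at -1.67, and Surf1, a complex IV assembly factor, was lower, at -0.68. After AMPH at 3 h, where 5.08% of all genes were higher and 3.6% lower, Polrmt (-0.82) and Suclg2 (-0.63) were lower, and Sdhaf3 (1.33), Pgam1 (0.82) and Tpi1 (1.23) were higher.

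In CP at 3 h, 1 gene of these lists passed in each comparison with saline, Polg2, the accessory subunit of the polymerase that copies mitochondrial DNA. It was 0.80 ± 0.14 higher after EIH (adjusted p 0.0214) and 0.75 ± 0.14 higher after AMPH (adjusted p 0.0434). Both comparisons share the saline pools. None of the listed genes passed in CP at 1 day.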

How the data were processed

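Members, gene lists and alternatives were chosen with earlier results of these data known. The authors' deposited file holds linear intensity values of 14055 probes on 44 arrays, with Cy3 as the only dye, from Tri Reagent RNA labelled with the Agilent Quick Amp kit per the labels' protocols. How background was corrected and arrays were normalized is not given in the sources used here. Array medians were 139 to 146 over the 24 arrays of 3 h and 165 to 171 over the 20 arrays of 1 day, which points to normalization in 2 sets. No flags for background or saturation were used here. The limits include the number of arrays, the top of the range (log2 15.999), dim probes, single low spots and the conflicts between labels. Blank cells (3.05% in CP and 8.57% in blood, among members 1 of 1380 and 21 of 1656) stayed missing.

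Log2 of the intensity was fitted with limma 3.58.1 (R 4.3.3, data.table version 1.17.8), a mean per group and empirical Bayes. The fits used the 8 saline arrays of 3 h (tissues), the 20 CP arrays, the 24 blood arrays, or all 44 (difference of effects). Genes with at least 2 values in each compared group were tested, with Benjamini-Hochberg adjustment over all of them. Groups came from treatment, tissue and time labels, and replicates were numbered in accession order. In the tissue comparison the text names the 2 largest differences each way per complex and fixed core subunits and isoforms. In comparisons of a treatment with saline it names every member that passed and the 3 largest rises and falls. For AMPH against EIH no member is named. For the differences of effects the members that passed are named, with some others that are not the largest differences. Alternatives were other normalizations, filters, probe rules, spreads and array weights, leaving out each array, leaving out pools with a recurring rat number, and a random block for arrays with a common rat. Steps were tested on simulated data. Figures used Python 3.11.15, pandas 2.3.3 and matplotlib 3.10.9.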

Additional observations from a re-analysis of the deposited data

Results flagged for a closer look

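Arrays that stood far from the others of their group were sought among 4 values at a time, a test that chance alone passes in about 1 of 20 groups. It marked 8 of 66 groups of complex scores and 21 of 159 groups of the 15 members shown by array.

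Of these 29 marks, 13 were CP AMPH 1 day replicate 2, the pool with less epithelial and more stromal, erythroid and platelet signal. Its scores relative to saline were -1.03 for complex I, -0.92 for complex II, -1.35 for complex V and -1.0 over complexes I to V. In log2 intensity the same pool was apart in Ndufs3 (11.67), Ndufv3 (10.58), Sdha (13.94), Cox4i1 (11.90), Cox6a1 (15.27), Cox8a (14.62), Atp5f1a (11.70) and Atp5mc3 (12.39), all low, and in Cox6b2 (8.14).

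Other pools of CP were apart in single genes. In CP saline replicate 3 the spots of Ndufs8 (6.55) and Cox8a (8.86) were low, and in replicate 2 the complex V score (0.087) and Atp5mc3 (14.53) were high. CP EIH 1 day replicate 1 was low over complexes I to V (-0.28) and in Cox6a1 (15.86). After EIH at 3 h, replicate 3 was apart in the complex II score (-0.10) and in Sdha (14.86), replicate 4 in Cox4i2 (8.75) and replicate 1 in Cox8a (15.97).

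In blood, AMPH 1 day replicate 3 had Cox4i2 at 14.31, where the other 3 rats had 11.40 to 11.60, and replicate 4 had Cox6a2 at 8.20. EIH 1 day replicate 4 was low in complex IV (-0.36), saline 1 day replicate 3 in Cox6a1 (15.48) and saline 3 h replicate 3 in Ndufs8 (7.60). AMPH 3 h replicate 3 was high in Uqcrc2 (11.06). Among all members, 9 spots of 8 genes lay at least 3 log2 below the other arrays of their group. There are 759 sets of a gene and a group, and those with a blank cell were not searched.

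The effect of EIH at 3 h differed between CP and blood, by the test of the difference itself, for Ndufaf4 (1.01, adjusted p 0.0199) and Uqcrc2 (0.76, adjusted p 0.0465), fitted with limma over all 44 arrays.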

How the results depend on the processing

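No paired analysis was possible because replicate numbers follow accession order, and the rat numbers in the titles tie CP pools and blood samples unevenly (3 of the 4 blood saline rats of 3 h went into the same CP pool). A random replicate block for arrays with a common rat (consensus correlation 0.0831 between tissues, 0.167 for the differences of effects) left 55 members higher and 3 lower in CP saline than in blood saline (median 1.83). For the differences of effects at 3 h the block gave 2 higher and 1 lower for EIH, and 1 higher and 1 lower for AMPH, against 2 and 0, and 0 and 0.

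In the tissue comparison the 3 members lower in CP became 5 under quantile normalization (24.1% of all genes lower), without the dimmest 25% of genes (30.0%) and with genes measured on every array (29.1%). They were 5 with an intensity trend and robust spread (24.2%), and for the brightest 25% of genes (48 higher and 5 lower of 59, with 48.3% and 36.4% of all genes). They were also 5 in the mean of the 3 tissue differences at 3 h (median 1.91, 32.1% of all genes lower) and after EIH at 3 h (median 2.06, 26.7%). The median was 1.69 with the mean over probes, 1.92 after AMPH at 3 h, 1.75 after EIH at 1 day and 1.54 after AMPH at 1 day. Cox6c-ps1 reversed to -0.91 after AMPH at 3 h. The cause of these shifts was not tested.

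For CP after EIH at 3 h, array weights gave 2 higher and 8 lower (median -0.078), beside 5.25% and 5.56% of all genes. The brightest 25% gave 1 higher (2.88% of all genes), and dropping pools that hold a recurring rat number a median of -0.068. After AMPH at 3 h, array weights gave 3 higher and 4 lower (6.52% and 6.67%) and the brightest 25% 1 higher (3.38%). For CP after EIH at 1 day the median was -0.29 with the same median for every array and -0.19 with the same 75th percentile. Array weights gave 2 lower there, and dropping pools that hold a recurring rat number 1 lower and a median of -0.29. The latter setting gave 2 higher and a median of 0.21 for AMPH against EIH at 1 day. It leaves 1 EIH pool of 1 day, replicate 1, the one with more stromal signal and the lowest subunit score, assumed to vary like the others, and it also drops CP AMPH 1 day replicate 2.

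For blood after EIH at 3 h the 6 lower members became 11 without the dimmest 25% of genes, with genes measured on every array, and with the intensity trend (10.3%, 11.9% and 7.57% of all genes lower), 12 with array weights (10.7%) and 14 in the brightest 25% (19.0%). The higher count became 1 without the dimmest genes (8.12% of all genes higher), with genes measured on every array (9.31%), with array weights (9.05%) and in the brightest 25% (13.8%). It was also 1 with the mean over probes (4.94%) and with only the compared groups in the fit (5.94%). After AMPH at 3 h the lower count became 3 without the dimmest genes (5.63% of all genes lower), 4 with genes measured on every array (6.84%) or with the trend (4.26%), 6 with array weights (7.39%) and 8 in the brightest 25% (14.3%). For blood after AMPH at 1 day 1 member was lower with genes measured on every array (1.56% of all genes lower) or with array weights (0.418%). In the brightest 25% there were 2 lower (6.11%), and AMPH against EIH at 1 day had 1 lower (3.88%).

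For the difference between tissues in the EIH effect, the 2 higher members became 1 under each of the 3 other normalizations (3.34% to 3.49% of all genes higher). They were 1 without pools with a recurring rat number (1.85%) and 0 with the mean over probes (3.1%). With array weights or only the compared groups they were 5 (8.59% and 5.96%), and in the brightest 25% they were 4 (14.2%). The lower count became 1 with genes measured on every array (4.17% of all genes lower), array weights (6.07%) and the mean over probes (1.97%). It was also 1 with only the compared groups (4.41%) and in the brightest 25% (5.39%). For AMPH, 2 were higher and 1 lower without the dimmest genes (2.72% of all genes higher and 2.87% lower) and with genes measured on every array (3.5% and 3.41%). The same counts came with the trend (1.91% and 2.11%) and in the brightest 25% (7.93% and 4.54%). Array weights gave 3 higher and 2 lower (6.18% and 6.21%), and only the compared groups 2 lower (3.21%).

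Leaving out single arrays gave a tissue median of 1.75 to 1.89, with 53 to 55 members higher and 3 to 4 lower. It gave 5 to 10 members lower and 0 to 1 higher in blood after EIH at 3 h, 0 to 1 higher and 0 to 2 lower after AMPH at 3 h, and 0 to 1 lower after AMPH at 1 day. In CP it gave 0 to 2 higher after EIH at 3 h (median -0.07 to -0.009) and 0 to 2 higher after AMPH at 3 h. For the EIH difference of effects it gave 0 to 2 higher, and for AMPH 0 to 2 higher and 0 to 1 lower (median -0.01 to 0.10). The remaining comparisons kept 0 members called whichever array was left out. Read by another probe, Ndufb3 and Ndufaf4 lose the tissue call, Ndufs8 gains it, and in blood after EIH at 3 h Ndufb3 passes as higher and Atp5mc2 as lower. The top of the range (log2 15.999) limits 8 members with an array close to it, of which Ndufb4, Cox6a1, Atp5f1e and Atp5me also have their CP saline mean there.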

Other observations

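Among the related genes, the effect of EIH at 3 h also differed between CP and blood by the test of the difference itself. The effect was higher in CP for Polrmt, the mitochondrial RNA polymerase (1.48 ± 0.25, limma adjusted p 0.00041), Tfam, which packages mitochondrial DNA (1.01, adjusted p 0.0116), and Polg, the catalytic subunit of the mitochondrial DNA polymerase (1.96, adjusted p 0.0179). It was also higher in CP for the coactivator Pprc1 (1.18), Suclg2 of the citric acid cycle (0.86) and Surf1, a complex IV assembly factor (0.76). For AMPH, Polrmt differed in the same direction (1.22, adjusted p 0.0058) and Sdhaf3, an assembly factor of complex II, in the opposite direction (-1.40, adjusted p 0.00823). These genes stand beside 6.13% of all genes for EIH and 3.15% for AMPH.

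In blood 1 day after AMPH, 1 gene of the lists passed, Ldha, the lactate dehydrogenase subunit known from glycolytic tissues, which was 1.02 ± 0.25 higher than after saline (adjusted p 0.0356).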
